A study of Mus musculus with 13 samples.

Results

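The chemokine receptors followed here are 9 genes: Ccr1, Ccr2, Ccr3, Ccr7, Ccrl2, Cxcr2, Cxcr3, Cxcr4 and Cx3cr1. They were chosen by name as non-control probes of a whole-genome array, and 9 of the 9 were on it, with 15 probes among the 41073 probes (28257 genes) that had a value on every array. The array files name the Cxcr2 probes Il8rb, an older symbol, and they were matched through their RefSeq accession. A gene was tested if at least 1 group had one of its probes well above background throughout, as 20886 genes did. That left 7 receptors with 12 probes to test, and Ccr7 and Cx3cr1, described by their signals only.

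RNA came from macrophages grown from the marrow of male C57BL/6J mice aged 12 to 16 weeks, in medium with 30% L929-conditioned medium for 6 days. Every group carried Hdac3 alleles with exons 4 to 7 between loxP sites. Control cells had these alleles without Cre, and knockout (KO) cells also expressed Cre recombinase from the lysozyme M promoter, which is active in myeloid cells, so Cre and the loss of HDAC3 cannot be told apart. HDAC3 is a histone deacetylase that works in corepressor complexes, and interleukin-4 (IL-4) is a cytokine that drives alternative activation of macrophages. The treatment lasted 24 hours and was IL-4 at 10 ng/mL or its vehicle (0.1% bovine serum albumin), which gave control vehicle (arrays 1 to 4, n = 4), KO vehicle (arrays 5, 6 and 7, n = 3), control IL-4 (arrays 9, 10 and 12, n = 3) and KO IL-4 (arrays 13, 14 and 15, n = 3). Nothing in the labels ties the arrays to separate mice or dishes, so every p-value measures only the spread between these arrays, which may be technical.

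Chemokine receptors are G protein-coupled receptors that steer leukocytes along gradients of small secreted proteins, the chemokines. Most inflammatory CC receptors bind several ligands and share them, while Ccrl2 is an atypical receptor that binds the protein chemerin and presents it to other cells without itself signalling. Monocytes lose some of these receptors and keep others as they mature into macrophages, and IL-4 and microbial products shift the set further.

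As a check of the genotype, Hdac3 signal fell by 1.41 on the log2 scale in KO vehicle cells (adjusted p = 0.00295) and by 1.52 under IL-4 (adjusted p = 0.00397), although whether its probe falls inside the deleted stretch is unknown here. All 9 of 9 macrophage markers were well above background on every array. The share of spots well above background ran from 56.2% to 83.2%, lowest on control vehicle array 4 and next lowest on KO IL-4 array 15. The 13 arrays lay on 4 slides, with the group tied to the place on the slide, so place and group cannot be told apart. Levels below are log2 of the background-corrected signal minus the 75th percentile of the array, so 0 is a probe as bright as that percentile, and a level of one probe says nothing against that of another. A receptor was called at an adjusted p under 0.05 over all 20886 genes.

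In all, 5 comparisons were made, and in the main fit HDAC3 loss in vehicle had the most receptors called. With median scaling, and with no filter on dim probes, it had 3, as many as HDAC3 loss under IL-4. In the main fit of HDAC3 loss in vehicle, 2 of the 7 tested receptors rose (Ccr1 and Ccrl2), against 2.42% of all genes called higher. In the same comparison 3 fell (Ccr2, Ccr3 and Cxcr3), against 2.26% called lower, and 6 of 7 had no overlap between the groups, against 16.9% of all genes. Under IL-4, HDAC3 loss raised 2 (Ccr1 and Ccrl2), against 2.03% of genes, and lowered 1 (Ccr2), against 1.6%, with no overlap of the groups for 4 of 7, against 17.8%. IL-4 in control cells raised Ccr1 alone, 1 of 7 against 2.76% of genes, and lowered Cxcr3 alone, 1 of 7 against 2.88%, and 4 of 7 had no overlap, against 16.7%. IL-4 in KO cells lowered Cxcr3, 1 of 7 against 1.02% of genes, and raised 0, against 1.16%, with no overlap for 2 of 7, against 18.3%. No receptor of the 7 was called in the interaction of genotype and IL-4, against 0.00479% of genes, which is 1 gene. At an unadjusted p under 0.05 limma put 2 of 7 receptors past the threshold in the interaction (Ccr1 and Ccr3), beside 811 of 20886 genes, and none higher for IL-4 in KO cells; no other test was run on these counts. The median log2 change over the 7 was 0.13 for HDAC3 loss in vehicle, 0.03 under IL-4, -0.23 for IL-4 in control cells and -0.02 in KO cells, beside 0.02, -0.02, 0.01 and -0.04 over all genes.

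**Figure D1:**
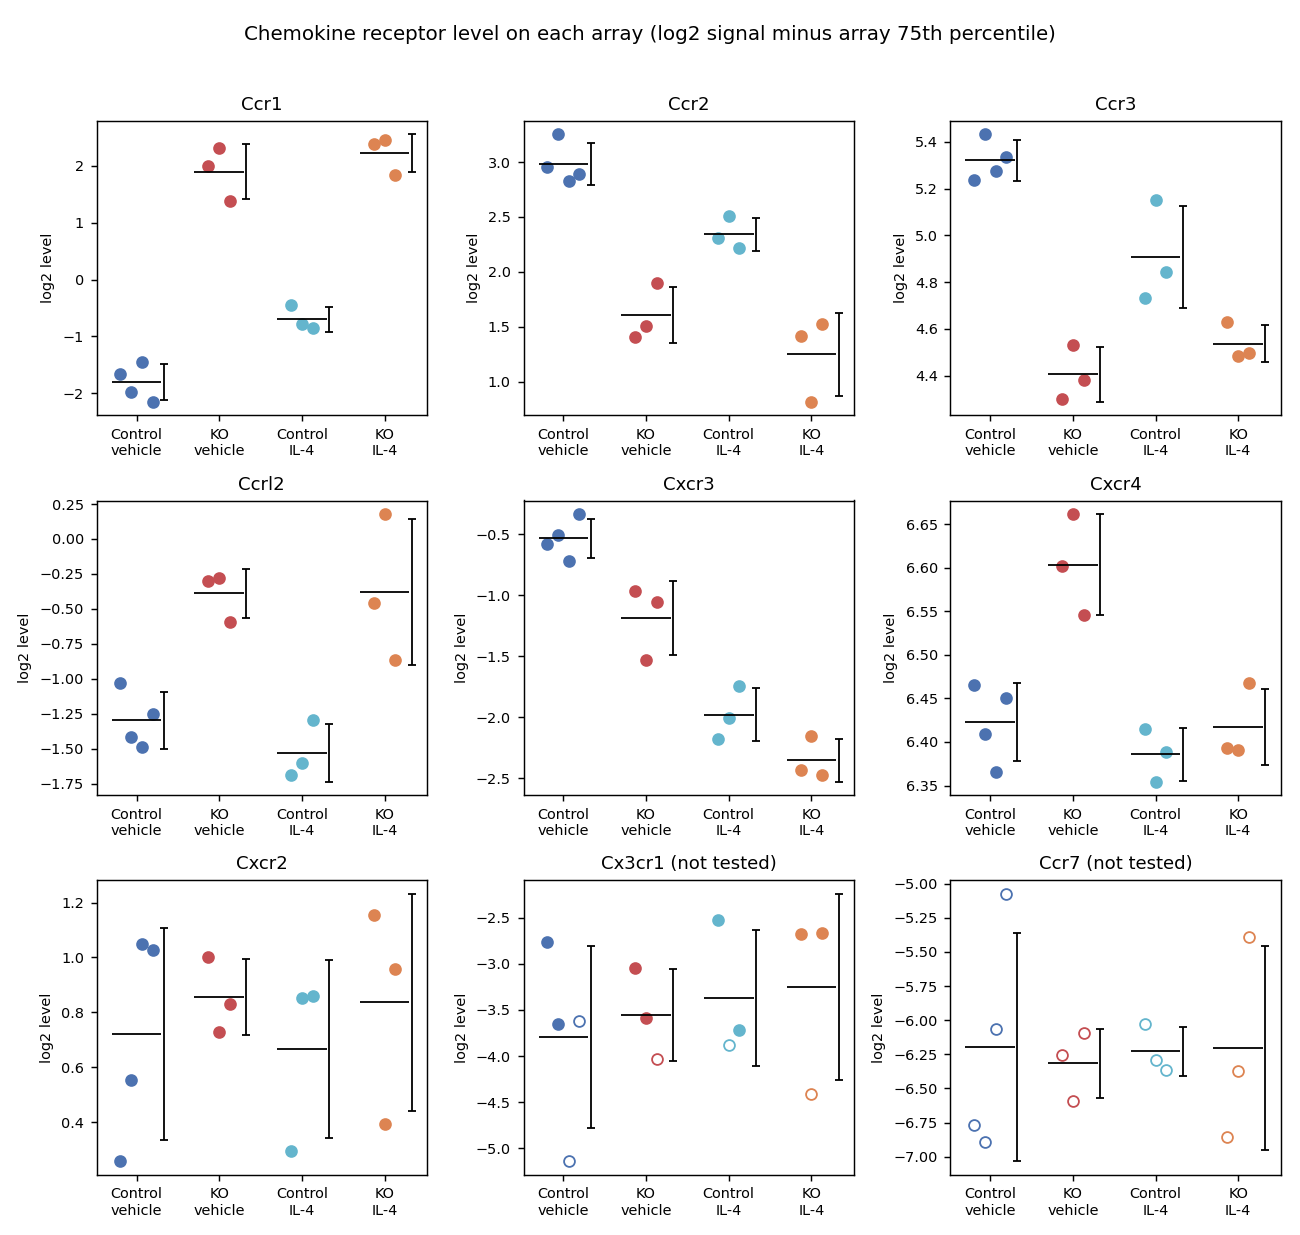
Log2 level of the 9 receptors on each of 13 arrays (y axis, log2 signal minus the array's 75th percentile) in 4 groups (x axis), for the brightest probe, with the group mean as a line, 1 SD as a bar and open circles where the probe was not well above background; y scales differ between panels. Ccr1 sits between 1.37 and 2.45 on all 6 KO arrays and between -2.15 and -0.45 on all 7 control arrays, while Ccr7 has open circles throughout.

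**Figure D2:**
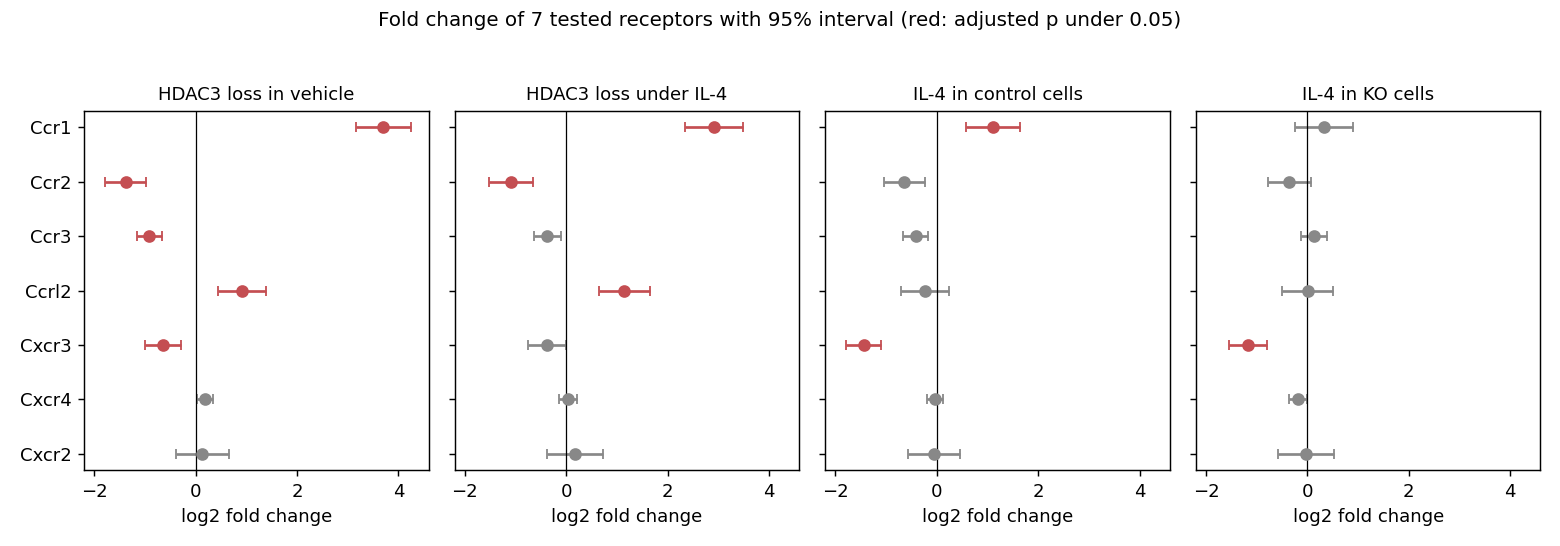
Log2 fold change (x axis) of the 7 tested receptors (y axis) in 4 comparisons, with points for limma estimates, bars for 95% intervals and red for an adjusted p under 0.05. Ccr1 stands farthest from 0 in both comparisons of HDAC3 loss, and Cxcr3 is the only one red in both IL-4 comparisons.

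Ccr1 is a receptor for Ccl3, Ccl5 and Ccl7, and in the mouse also for Ccl6 and Ccl9. It showed the largest difference of the 7. Its log2 level was -1.65, -1.98, -1.45 and -2.15 on control vehicle arrays 1, 2, 3 and 4, and 2.001, 2.32 and 1.37 on KO vehicle arrays 5, 6 and 7. Under IL-4 it was -0.45, -0.79 and -0.86 on control arrays 9, 10 and 12, and 2.38, 2.45 and 1.83 on KO arrays 13, 14 and 15. Every KO array lay above every control array, and every control IL-4 array above every control vehicle array, while KO vehicle and KO IL-4 arrays overlapped. The background-corrected signal was 122 to 211 on control vehicle arrays and 1588 to 3168 on KO vehicle arrays, all well above background.

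HDAC3 loss raised Ccr1 13.02-fold in vehicle (log2 3.70, SE 0.245, adjusted p = 1.53e-05) and 7.55-fold under IL-4 (log2 2.92, SE 0.262, adjusted p = 0.000215). Among all genes tested it ranked 4 by size of rise in vehicle and 6 under IL-4. Within slides 1, 2 and 3 the vehicle difference was 3.66, 4.30 and 2.82, and within slides 1 and 2 the IL-4 difference was 2.83 and 3.23. IL-4 raised Ccr1 2.15-fold in control cells (log2 1.11, SE 0.245, adjusted p = 0.0201), with 1.20, 1.19 and 1.29 within slides 1, 2 and 4. That call was lost without control vehicle array 2 (adjusted p = 0.0602) or 4 (0.0571) and without control IL-4 array 9 (0.0956), 10 (0.0526) or 12 (0.0503). In KO cells the IL-4 difference was 0.32 (95% interval -0.25 to 0.89, adjusted p = 0.680). The IL-4 effect in KO cells minus that in control cells was -0.79 (95% interval -1.57 to -0.000857, unadjusted p = 0.0498, adjusted p = 0.999), so it was not called different. By root mean square distance of centred log2 levels over 13 arrays, the gene with the pattern most like Ccr1 was Ccl2 (0.256), followed by Mmp13 (0.486) and Plaur (0.628), where Ccr1 itself had an SD of 1.84 over the arrays.

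Ccr2 is the receptor for Ccl2, Ccl7 and Ccl12 that brings monocytes out of the marrow and into inflamed tissue. It went the other way from Ccr1. Its brighter probe read 2.95, 3.25, 2.83 and 2.89 on control vehicle arrays 1, 2, 3 and 4 and 1.41, 1.51 and 1.89 on KO vehicle arrays 5, 6 and 7. With IL-4 it read 2.31, 2.51 and 2.21 on control arrays 9, 10 and 12 and 1.41, 0.82 and 1.52 on KO arrays 13, 14 and 15. All 7 control arrays lay above all 6 KO arrays, the control IL-4 arrays lay below the control vehicle arrays, and the KO groups overlapped.

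HDAC3 loss lowered Ccr2 2.60-fold in vehicle (log2 -1.38, SE 0.184, adjusted p = 0.00119) and 2.13-fold under IL-4 (log2 -1.09, SE 0.197, adjusted p = 0.00949). Within slides 1, 2 and 3 the vehicle difference was -1.54, -1.75 and -0.93, and within slides 1 and 2 the IL-4 difference was -0.90 and -1.69. Fitted on the compared groups alone, the difference under IL-4 was not called (adjusted p = 0.115). The dimmer probe, tested on its own over 29042 probes, gave -2.07 in vehicle (adjusted p = 0.000929) and -1.79 under IL-4 (adjusted p = 0.00473). Both Ccr2 probes were therefore called in both comparisons, and the dimmer one had the larger difference. IL-4 gave -0.64 in control cells (adjusted p = 0.0749) and -0.35 in KO cells (adjusted p = 0.521), neither called, though the first was called without KO IL-4 array 14 (adjusted p = 0.0237). It was also called with normexp (0.0243), only probes well above background on all arrays (0.0462), only the groups compared (0.0467), a trended and robust variance (0.0196) and array weights (0.0033). The genes most like Ccr2 over 13 arrays were Ms4a6c (0.192), Ccnd1 (0.203) and Axl (0.211), with an SD of 0.75 for Ccr2.

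Ccr2 marks inflammatory monocytes, so markers of these cells were read beside it. Of the 5 reported here, 5 were tested. With HDAC3 loss 1 was called lower and 0 higher, both in vehicle and under IL-4, against 2.26% and 1.6% of all genes called lower. At an unadjusted p under 0.05 limma gave 2 lower and 1 higher in each, so these markers did not all go one way. The median was -0.79 in vehicle and 0.12 under IL-4. Ly6c2, a surface antigen of these monocytes, fell 7.16-fold in vehicle (adjusted p = 0.000318) and had a log2 difference of -3.39 under IL-4 (adjusted p = 0.000282). The summed monocyte level, in units of the array's 75th percentile, was 24.5 to 34.3 on control vehicle, 3.68 to 8.56 on KO vehicle, 15.9 to 22.7 on control IL-4 and 2.66 to 3.62 on KO IL-4 arrays. Such sums, here and below, add unlogged levels, so the brightest genes weigh most in them. The part of the monocyte markers in the Ccr2 difference was not tested. In RNA from a whole culture, fewer cells of a type and less RNA per cell cannot be told apart.

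Ccr3 binds the eotaxins Ccl11 and Ccl24 and is best known from eosinophils. Its brighter probe read 5.23, 5.43, 5.28 and 5.34 on control vehicle arrays 1, 2, 3 and 4 and 4.30, 4.53 and 4.38 on KO vehicle arrays 5, 6 and 7. Under IL-4 it read 4.73, 5.15 and 4.85 on control arrays 9, 10 and 12 and 4.63, 4.48 and 4.50 on KO arrays 13, 14 and 15. For this probe no control array overlapped a KO array, and the 3 IL-4 control arrays lay between the vehicle controls and the KO cells. The dimmer probe read 0.43 on control IL-4 array 9 and 0.47 on KO IL-4 array 13, so for it the genotypes overlapped under IL-4.

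HDAC3 loss lowered Ccr3 1.88-fold in vehicle (log2 -0.91, SE 0.112, adjusted p = 0.000697), with -0.93, -0.90 and -0.89 within slides 1, 2 and 3. Under IL-4 the difference was -0.37 (95% interval -0.64 to -0.11, adjusted p = 0.145), with -0.10 and -0.67 within slides 1 and 2. The dimmer probe fell by 1.15 in vehicle (adjusted p = 0.00483) and gave -0.60 under IL-4 (adjusted p = 0.174). IL-4 gave -0.41 in control cells (adjusted p = 0.0589) and 0.13 in KO cells (adjusted p = 0.722), and the control difference was called without control IL-4 array 10 (adjusted p = 0.0179), with the authors' deposited values (0.0328), only probes well above background on all arrays (0.0369), a trended and robust variance (0.00857) and array weights (0.00922). The interaction was 0.54 (unadjusted p = 0.00688, adjusted p = 0.999) and 0.54 for the dimmer probe (unadjusted p = 0.0763), neither called. Among the genes nearest to Ccr3 in pattern over 13 arrays were Ell2 (0.161) and Clec4a2 (0.162), where Ccr3 had an SD of 0.40.

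Markers of eosinophils were read beside Ccr3. Of 6 listed, 5 were tested, and Siglecf alone was called, 41.1-fold higher in KO vehicle cells (adjusted p = 1.78e-05) and 29.4-fold higher under IL-4 (adjusted p = 0.000102). Alox15 was not tested. Over all genes 2.42% were called higher in vehicle and 2.03% under IL-4. The median log2 difference over the 5 tested markers was 0.12 in vehicle and -0.11 under IL-4. The granule protein genes gave log2 differences in vehicle of 0.12 for Prg2, 0.02 for Epx and -0.05 for Prg3, with adjusted p of 0.985, 0.998 and 0.991. The summed level of the 5 tested markers was 0.881 to 1.15 on control vehicle, 8.34 to 18.4 on KO vehicle, 0.942 to 1.29 on control IL-4 and 7.06 to 17.9 on KO IL-4 arrays. That sum includes Siglecf, the only gene called, so its rise does not stand for the markers as a set.

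Ccrl2, the chemerin-binding atypical receptor, was the other receptor that HDAC3 loss raised. Its brighter probe (chr9:110958152-110958211, mm9, minus strand) read -1.03, -1.42, -1.49 and -1.26 on control vehicle arrays 1, 2, 3 and 4 and -0.30, -0.28 and -0.59 on KO vehicle arrays 5, 6 and 7. Under IL-4 it read -1.69, -1.60 and -1.29 on control arrays 9, 10 and 12 and -0.46, 0.18 and -0.86 on KO arrays 13, 14 and 15. Each KO array lay above each control array, with the widest spread in KO IL-4 cells, and treatment left the groups overlapping within a genotype.

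The rise was 1.88-fold in vehicle (log2 0.91, SE 0.216, adjusted p = 0.0344) and 2.22-fold under IL-4 (log2 1.15, SE 0.231, adjusted p = 0.0171). Within slides 1, 2 and 3 the vehicle difference was 0.73, 1.14 and 0.89, and within slides 1 and 2 the IL-4 difference was 1.23 and 1.78. The vehicle call was lost without control vehicle array 2 (adjusted p = 0.0912), 3 (0.0972) or 4 (0.0710), without KO vehicle array 5 (0.150) or 6 (0.156), and without control IL-4 array 10 (0.0514) or KO IL-4 array 13 (0.0503). Under IL-4 it was lost without control IL-4 array 9 (adjusted p = 0.0657) or 10 (0.0686), and with only the groups compared (0.182). The dimmer probe varied less between arrays and gave 0.95 in vehicle (adjusted p = 0.00134) and 0.97 under IL-4 (adjusted p = 0.00273). IL-4 moved neither probe past the threshold, with -0.23 in control cells (adjusted p = 0.753) and 0.01 in KO cells (adjusted p = 0.993). Most like Ccrl2 over 13 arrays were Gde1 (0.193), Fkbp1a (0.203) and Sidt2 (0.206), with an SD of 0.59 for Ccrl2.

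**Figure D3:**
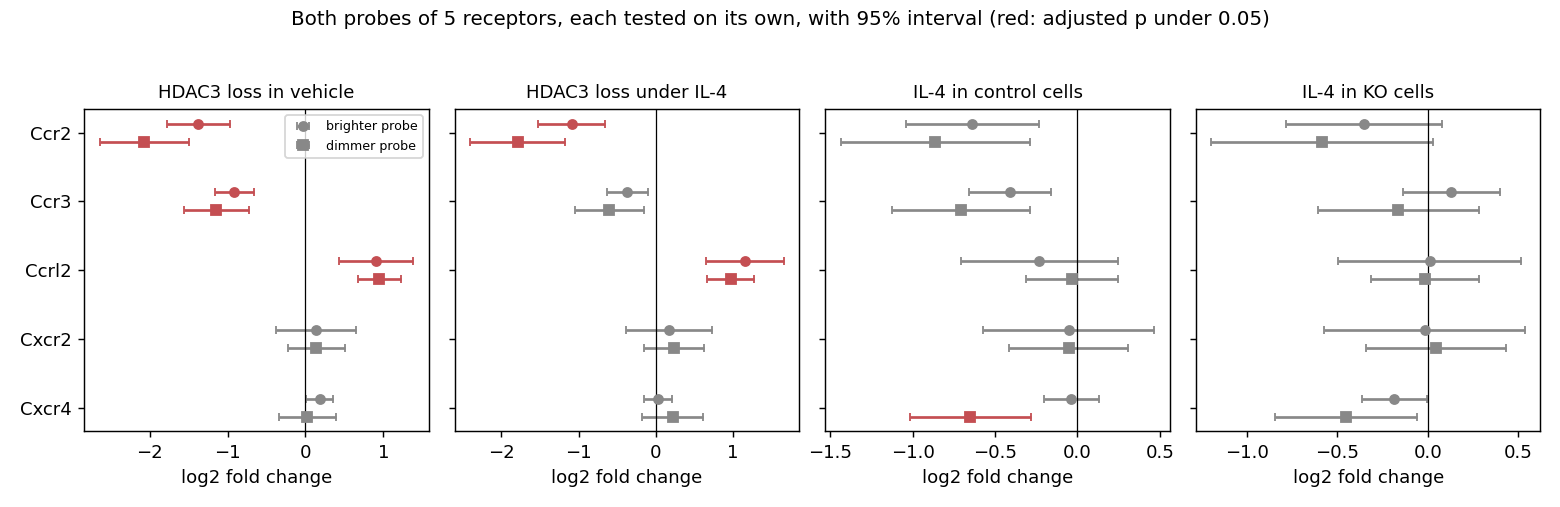
Log2 fold change (x axis) of the brighter (circle) and dimmer (square) probe of the 5 receptors with a pair of passing probes (y axis), each tested on its own, with 95% intervals and red for an adjusted p under 0.05. Both probes of Ccr2 and of Ccrl2 are red in both comparisons of HDAC3 loss, and for Cxcr4 the dimmer probe alone is red for IL-4 in control cells, at -0.65.

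Ccr1, Ccr3 and Ccr2 lie close together in a receptor cluster on chromosome 9, so their opposite changes were read along the gene order of RefSeq (GRCm38.p6). Among protein-coding genes the order is Xcr1, Ccr1, Ccr1l1, Ccr3 and Ccr2, with 0 others between them. In vehicle Ccr1 rose by 3.70 (adjusted p = 1.53e-05), Ccr1l1, a Ccr1-like receptor gene, gave -0.32 (adjusted p = 0.866), and then Ccr3 and Ccr2 fell by 0.91 and 1.38. On the other side of Ccr1, Xcr1, Cxcr6 and Ccr9 were not called in vehicle, with -0.34, -0.02 and 0.00. Fyco1, an adaptor of autophagosome transport, lies between Ccr9 and Cxcr6. It was not called in vehicle either, though limma gave it as higher at an unadjusted p under 0.05. Of 18 genes around the receptors that are reported here, 17 were tested. In vehicle 2 were higher (Ccr1 and Ccrl2), against 2.42% of all genes, and 2 lower (Ccr3 and Ccr2), against 2.26%. All of these calls were of the receptors followed here. The 17 had a median of 0.0037 in vehicle, beside 0.02 over all genes. Under IL-4, 3 were higher and 1 lower, against 2.03% and 1.6% of all genes. The third of the higher genes was Fyco1 (log2 0.50, adjusted p = 0.0185). Ccrl2 lies apart on the same chromosome, 107 protein-coding genes before Limd1, the first listed gene of the main cluster.

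**Figure D4:**
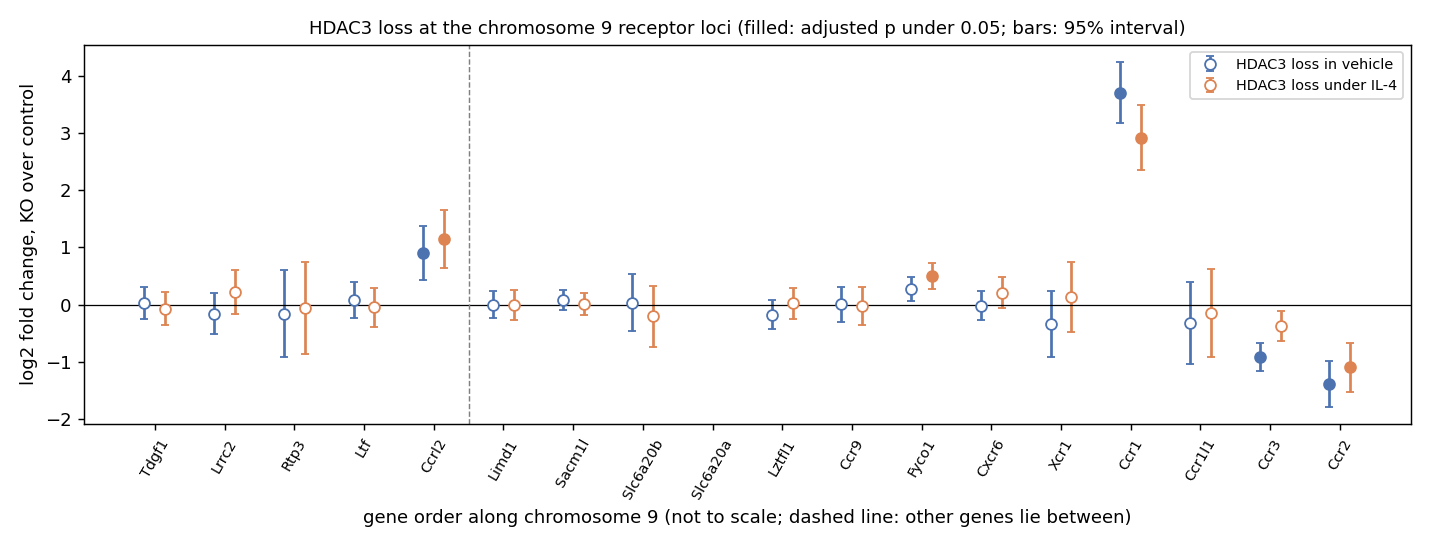
Log2 fold change of KO over control cells (y axis) for listed genes in their order on chromosome 9 (x axis, not to scale) in vehicle (blue) and under IL-4 (orange), with 95% intervals and filled points for an adjusted p under 0.05; Slc6a20a was not tested. Ccr1 stands at 3.70 and 2.92, while Ccr3 and Ccr2 to its right lie below 0 in both comparisons.

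The probe sequences behind these 3 receptors are shown because similar receptor genes could share probe sequence. Each line gives the first 30 bases of a 60-base probe, 5′ to 3′, with the mm9 coordinates of the whole probe from the array files; no base is in capitals. Whether a probe lies in coding sequence or a UTR was not determined here.
Ccr1 probe, chr9:123877790-123877849, minus strand: agtataagatgttatgtcaaaaaattaaat
Ccr3 brighter probe, chr9:123945225-123945284, plus strand: accggccctcacataccaaatagaggatgt
Ccr3 dimmer probe, chr9:123944076-123944135, plus strand: cacaaggccatccgtcttatttttgttgtt
Ccr2 brighter probe, chr9:124022948-124023007, plus strand: gaagcagggacagaattcttgctttgaaaa
Ccr2 dimmer probe, chr9:124023519-124023578, plus strand: aagtaaatatgcaaaggagagaagttagag
None of these 5 probes shared a run of 14 or more bases with a probe of another gene on the array, Ccr1l1 included. Transcripts of other genes were not searched.

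The promoters of the same 3 genes are shown because neighbours moved apart. Each is the 250 bases before the RefSeq start (GRCm38.p6), written in the direction of transcription, and capitals mark a match to the AP-1 motif TGANTCA on either strand.
Ccr1 promoter, chr9:123968693-123968942, minus strand: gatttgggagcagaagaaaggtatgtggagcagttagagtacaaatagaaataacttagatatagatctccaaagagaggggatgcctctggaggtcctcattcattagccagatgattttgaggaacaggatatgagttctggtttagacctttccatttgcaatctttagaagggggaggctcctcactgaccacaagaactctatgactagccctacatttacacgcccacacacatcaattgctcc
Ccr3 promoter, chr9:124021721-124021970, plus strand: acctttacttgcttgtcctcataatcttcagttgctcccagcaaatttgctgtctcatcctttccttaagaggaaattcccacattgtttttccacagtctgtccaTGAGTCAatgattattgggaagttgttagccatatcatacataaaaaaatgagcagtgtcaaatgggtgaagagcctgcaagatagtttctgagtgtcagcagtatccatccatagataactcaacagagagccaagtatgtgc
Ccr2 promoter, chr9:124101933-124102182, plus strand: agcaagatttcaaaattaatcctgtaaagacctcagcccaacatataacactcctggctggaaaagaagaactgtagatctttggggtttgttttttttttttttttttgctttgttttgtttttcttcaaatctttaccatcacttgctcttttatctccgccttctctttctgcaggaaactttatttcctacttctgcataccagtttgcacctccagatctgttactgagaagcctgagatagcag
Ccr3 holds 1 AP-1 match, 144 bases before the start, and Ccr1 and Ccr2 hold none. The letters of STAT6 (TTCNNNNGAA), PU.1 (AGGAAGT) and ISRE (GAAANNGAAA) were not found in these 3 windows on either strand. Among 32851 promoter windows of the same length, 6.75% held the AP-1 letters, 5.85% those of STAT6, 7.69% those of PU.1 and 2.98% those of ISRE. A match is a description of the sequence only.

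Cxcr3, the receptor for the interferon-induced chemokines Cxcl9, Cxcl10 and Cxcl11, was the receptor that IL-4 lowered. Its single probe (chrX:98926920-98926979, mm9, minus strand) read -0.58, -0.50, -0.72 and -0.33 on control vehicle arrays 1, 2, 3 and 4 and -0.96, -1.53 and -1.06 on KO vehicle arrays 5, 6 and 7. With IL-4 it read -2.18, -2.01 and -1.75 on control arrays 9, 10 and 12 and -2.43, -2.15 and -2.47 on KO arrays 13, 14 and 15. All 6 IL-4 arrays lay below all 7 vehicle arrays, and the genotypes overlapped under IL-4 but not in vehicle.

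IL-4 lowered Cxcr3 2.72-fold in control cells (log2 -1.44, SE 0.161, adjusted p = 0.000233) and 2.25-fold in KO cells (log2 -1.17, SE 0.172, adjusted p = 0.00371). Within slides 1, 2 and 4 the control difference was -1.60, -1.50 and -1.41, and within slides 1, 2 and 3 the KO difference was -1.47, -0.62 and -1.42. On the compared groups alone the KO difference was not called (adjusted p = 0.0708). HDAC3 loss gave -0.65 in vehicle (SE 0.161, adjusted p = 0.0425) and -0.37 under IL-4 (95% interval -0.75 to 0.00498, adjusted p = 0.344). The vehicle call rested on a narrow margin: it was lost without control vehicle array 1 (adjusted p = 0.0848), 2 (0.0999), 3 (0.0564) or 4 (0.119), KO vehicle array 5 (0.0600), 6 (0.204) or 7 (0.0678), control IL-4 array 10 (0.0631) and KO IL-4 array 13 (0.0587) or 15 (0.0556). The genes nearest in pattern were AK149231 (0.194), an array name with no newer symbol here, Coro1a (0.234) and Enpp4 (0.238), with an SD of 0.78 for Cxcr3.

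Cxcr3 is best known from T and NK cells, whose markers were low. Of 9 listed, 4 were tested, and Cd3d, Cd2, Lck, Gzmb and Cd8a were not. None was called for IL-4 in either genotype at an adjusted or unadjusted threshold, and Klrb1c was higher in KO vehicle cells (log2 2.17, adjusted p = 0.00809). Their summed level was 0.815 to 1.05 on control vehicle and 0.773 to 1.04 on control IL-4 arrays. The Cxcr3 promoter is shown with its 2 matches to the PU.1 letters in capitals, here on the opposite strand as ACTTCCT, the farther one 230 bases before the start.
Cxcr3 promoter, chrX:101734148-101734397, minus strand: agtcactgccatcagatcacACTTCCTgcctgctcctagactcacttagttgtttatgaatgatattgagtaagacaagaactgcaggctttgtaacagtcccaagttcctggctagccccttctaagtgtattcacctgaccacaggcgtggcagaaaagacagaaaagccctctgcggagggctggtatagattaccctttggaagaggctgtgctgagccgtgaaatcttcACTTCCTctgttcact
These windows of Cxcr3, and those found for Cxcr2, Cxcr4, Cx3cr1 and Ccrl2, held no AP-1, STAT6 or ISRE letters.

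Cxcr4, the receptor for Cxcl12 that holds cells in the marrow, was well above background on every array and was not called. Its brighter probe (chr1:130485079-130485138, mm9, minus strand) read 6.47, 6.41, 6.37 and 6.45 on control vehicle arrays 1, 2, 3 and 4, 6.60, 6.66 and 6.55 on KO vehicle arrays 5, 6 and 7, 6.42, 6.35 and 6.39 on control IL-4 arrays 9, 10 and 12, and 6.39, 6.39 and 6.47 on KO IL-4 arrays 13, 14 and 15. The KO vehicle arrays lay above all others, but by little. HDAC3 loss in vehicle gave 0.18 (95% interval 0.02 to 0.34, adjusted p = 0.289). Under a trended and robust variance that difference was called (adjusted p = 0.0426). The dimmer probe differed for IL-4 in control cells, -0.65 when tested on its own (adjusted p = 0.0466), where the brighter probe gave -0.04. No spot was saturated. The probes thus disagreed on IL-4, and each shared a run of 16 bases with a probe of another gene.

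Cxcr2, the receptor for Cxcl1 and Cxcl2 that is best known from neutrophils, did not pass in any comparison. Its brighter probe ranged from 0.26 to 1.05 on control vehicle, 0.73 to 1.003 on KO vehicle, 0.29 to 0.86 on control IL-4 and 0.39 to 1.16 on KO IL-4 arrays, and all 4 groups overlapped. Differences were 0.13 for HDAC3 loss in vehicle (95% interval -0.38 to 0.65), 0.17 under IL-4 (-0.39 to 0.72), -0.05 for IL-4 in control cells (-0.57 to 0.47) and -0.02 in KO cells (-0.57 to 0.54). These intervals leave room for changes up to about their bounds. Of 9 neutrophil markers, 8 were on the array and 6 were tested, none called in any comparison, with Ly6g, Elane and Ngp not tested; at an unadjusted p under 0.05 limma gave 1 higher for IL-4 in control cells (Csf3r) and 2 in KO cells (Csf3r and Mpo). Their summed level was 3.54 to 9.40 on control vehicle, 2.71 to 6.23 on KO vehicle, 3.43 to 11.3 on control IL-4 and 3.57 to 10.8 on KO IL-4 arrays.

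Ccr7 and Cx3cr1 were the receptors too dim to test. Ccr7, which guides mature dendritic cells to lymph nodes through Ccl19 and Ccl21, was not well above background on any of 13 arrays, with signals of 4.56 to 16.1. Cx3cr1, the receptor for Cx3cl1 carried by resident macrophages and patrolling monocytes, had a brighter probe well above background on 2 arrays of each group and signals from 16.3 to 112. On control vehicle arrays 1, 2, 3 and 4 it gave 75.9, 43.0, 16.3 and 44.1, on KO vehicle arrays 5, 6 and 7 it gave 76.5, 52.9 and 37.5, on control IL-4 arrays 9, 10 and 12 it gave 112, 45.4 and 53.2, and on KO IL-4 arrays 13, 14 and 15 it gave 102, 35.7 and 96.8. Groups overlapped throughout. Its other probe was well above background on 1 control vehicle and 1 KO vehicle array.

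Of 15 other chemokine receptors reported here, 8 were tested and limma called 0 in each of the 5 comparisons. At an unadjusted p under 0.05 it gave 1, Xcr1, lower with IL-4 in control cells, and 0 in the other comparisons. Their median change in vehicle was -0.05, beside 0.02 over all genes. Cmklr1, the signalling receptor for chemerin, gave -0.11 in vehicle (adjusted p = 0.912), and Rarres2, which encodes chemerin, gave 0.03 (adjusted p = 0.996). Both are named because they share a ligand with Ccrl2.

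The genes of the ligands were read beside their receptors. Of 24 listed, 19 were tested, and Cxcl3, Cxcl5, Cxcl9, Cxcl11 and Cxcl12 were too dim. HDAC3 loss raised 5 and lowered 2 in vehicle, and again 5 and 2 under IL-4, while IL-4 raised 6 and lowered 4 in control cells and raised 3 and lowered 3 in KO cells. Over all genes 2.42% were called higher and 2.26% lower in the first comparison, 2.03% and 1.6% in the second, 2.76% and 2.88% in the third and 1.16% and 1.02% in the fourth. Medians were -0.16, 0.15, -0.08 and -0.07 in that order, beside 0.02, -0.02, 0.01 and -0.04 over all genes.

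Ccl2 and Ccl7, the main ligands of Ccr2, rose with HDAC3 loss where Ccr2 fell. In vehicle Ccl2 rose 10.7-fold (log2 3.42, adjusted p = 1.12e-05) and Ccl7 9.15-fold (log2 3.19, adjusted p = 9.87e-06), and under IL-4 they rose by 3.25 and 2.15 on the log2 scale. IL-4 alone raised Ccl7 5.56-fold in control cells (adjusted p = 1.48e-05), and Ccl2 gave 0.80 without a call. Ccl12, the other Ccr2 ligand named above, gave -0.74 with HDAC3 loss in vehicle (adjusted p = 0.169) and rose by 1.23 with IL-4 in control cells (adjusted p = 0.0131); it was named after its values were seen. Among ligands of Ccr1, Ccl5 fell 5.71-fold in vehicle (log2 -2.51, adjusted p = 6.42e-05), while Ccl6 and Ccl9, named after their values were seen, rose by 0.69 and 0.58. Ccl3 and Ccl4 were not called in vehicle (-0.18 and -0.34), and under IL-4 were 1.67-fold and 1.48-fold higher in KO than in control cells. IL-4 lowered both in control cells, Ccl3 3.18-fold (adjusted p = 1.27e-05) and Ccl4 2.63-fold (adjusted p = 1.18e-05). Ccl8 rose 5.62-fold with IL-4 in control and 5.88-fold in KO cells, and was 1.92-fold lower with HDAC3 loss in vehicle. For Ccr3, the eotaxin Ccl24, named after its values were seen, was 5.18-fold higher in KO vehicle cells (adjusted p = 0.000347), and Ccl11 gave -0.51 (adjusted p = 0.688). For Cxcr3, the one tested ligand Cxcl10 gave -2.67 with IL-4 in control cells (adjusted p = 0.00519), and gave -2.10 in KO cells (adjusted p = 0.0616); it too was named after its values were seen.

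**Figure D5:**
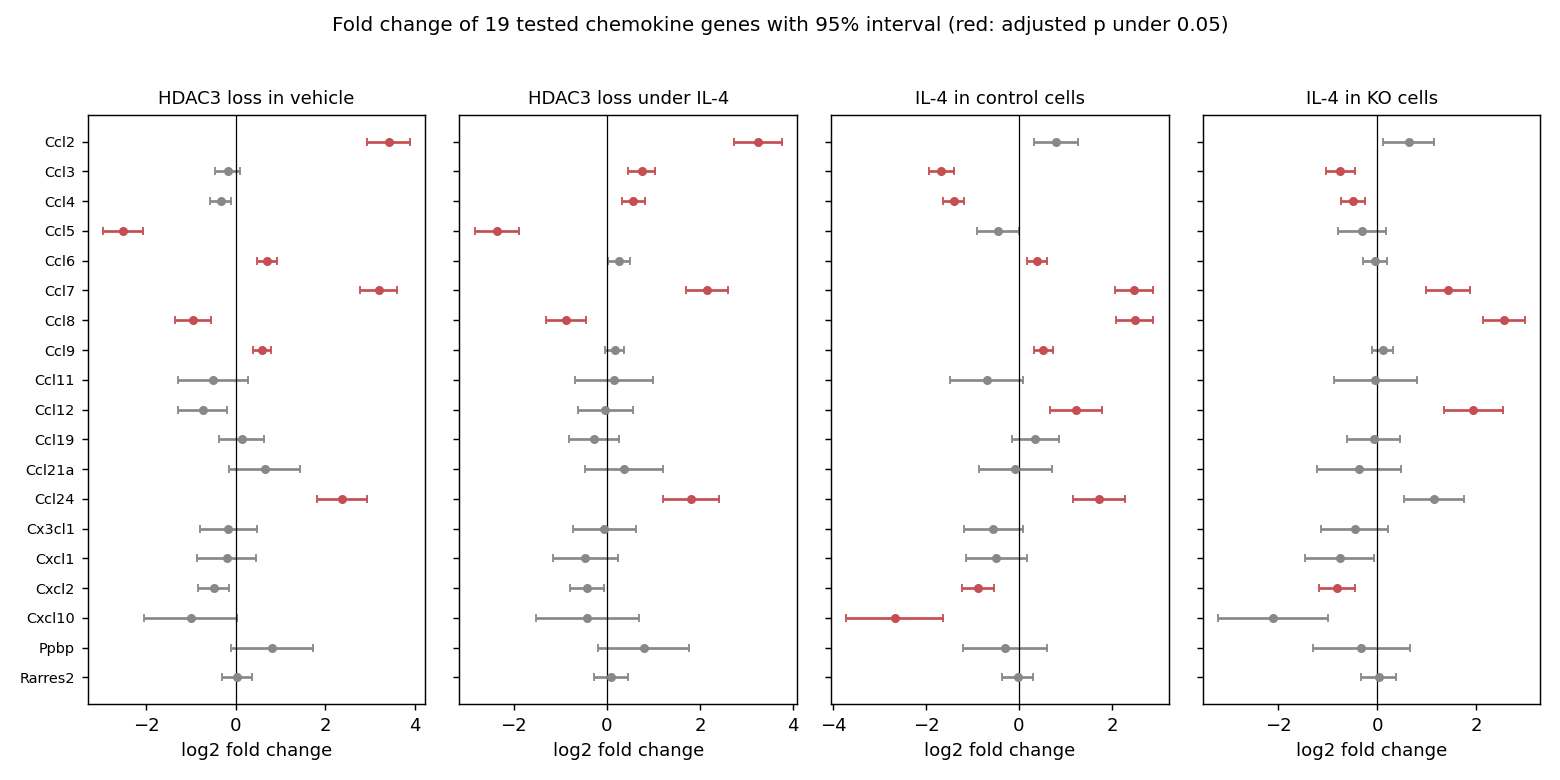
Log2 fold change (x axis) of 19 tested chemokine and chemerin genes (y axis) in 4 comparisons, with 95% intervals and red for an adjusted p under 0.05; x scales differ between panels. Ccl2 and Ccl7 lie above 2 in both comparisons of HDAC3 loss and Ccl5 below -2.

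Genes that couple these receptors to movement were read last. Of 34 listed and tested, 1 rose and 5 fell with HDAC3 loss in vehicle, and 1 rose and 3 fell under IL-4. With IL-4, 2 rose and 7 fell in control cells, and 1 rose and 0 fell in KO cells. Over all genes the shares called higher and lower were 2.42% and 2.26%, 2.03% and 1.6%, 2.76% and 2.88%, and 1.16% and 1.02%, so that a single gene of 34 is near the background. At an unadjusted p under 0.05 limma gave 5 higher and 8 lower with HDAC3 loss in vehicle and 8 and 6 under IL-4. For IL-4 it gave 3 higher and 16 lower in control cells and 3 and 6 in KO cells. In the same order 2843, 3114, 3062 and 2583 of all 20886 genes passed that threshold, in either direction. The list's median in these comparisons was -0.02, 0.03, -0.23 and -0.10. Rgs18, a regulator that shortens G protein signals, fell by 1.23 in vehicle (adjusted p = 0.000181) and by 0.92 under IL-4. Plcb2, a phospholipase driven by G protein subunits, fell by 1.33 in vehicle, and Grk3, a kinase that desensitizes receptors, fell by 1.01. IL-4 in control cells lowered Arrb2, an arrestin that takes receptors off the surface, by 1.01 and Rac2, a GTPase of the leukocyte cytoskeleton, by 0.96, and raised Jak2 by 0.91.

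Markers of other cells the cultures could hold gave the following. Of 9 dendritic cell markers 5 were tested, and 1 was higher with HDAC3 loss in vehicle and 2 with IL-4 in each genotype, with summed levels of 3.84 to 4.65 on control vehicle, 8.16 to 15.3 on KO vehicle, 33.2 to 39.7 on control IL-4 and 44.8 to 57.2 on KO IL-4 arrays; Fscn1, Cd209a, Ccl22 and Siglech were not tested. Mast cell and basophil markers had 2 of 7 tested and none called or past an unadjusted p under 0.05 (limma), with summed levels of 0.193 to 0.323 over the 13 arrays, and Mcpt8, Ms4a2, Gata2, Kit and Fcer1a were not tested. B cell markers had 4 of 6 tested, with Cd79b lower in KO vehicle cells (-0.75, adjusted p = 0.0413), summed levels of 1.67 to 2.30 over the 13 arrays, and Cd79a and Pax5 not tested. Of the 9 macrophage markers, 3 rose and 1 fell with HDAC3 loss in vehicle, with summed levels of 564 to 617 on control vehicle and 553 to 582 on KO vehicle arrays. With IL-4, 1 rose and 4 fell in control cells, and 0 rose and 2 fell in KO cells. Their summed level was 480 to 509 on control IL-4 and 530 to 570 on KO IL-4 arrays. Over all genes 2.42% were called higher and 2.26% lower with HDAC3 loss in vehicle. With IL-4, 2.76% were called higher and 2.88% lower in control cells, and 1.16% and 1.02% in KO cells. The part of these markers in the receptor differences was not tested.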

How the data were processed

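RNA of 13 macrophage samples was amplified with a NuGEN kit and labelled with Cy3, per the labels' protocols. The deposited scanner files hold 1-channel spot intensity on a linear scale; per the file headers the scans were read by Agilent Feature Extraction 10.5.1.1 and probes placed on mm9. Version 9.53 and limma stand in the submitters' processing notes. Control and outlier-flagged spots were left out, spots of a probe were averaged, and log2 of gProcessedSignal was centred on the 75th percentile of its array. The fit kept 29042 probes that a whole group showed well above background, and the brightest probe per gene. It used limma 3.58.1 (R 4.3.3) on group means over all 13 arrays (lmFit, eBayes, two-sided, Benjamini-Hochberg over 20886 genes). The authors' deposited value table, also linear intensity (39280 rows, log2 correlation with the scanner values at least 0.998, centring not stated), was an alternative. Others were other scalings, normexp (offset 50), filters, probe rules, variance models, slide blocks, array weights and leaving out arrays. Testing every probe on its own was chosen after seeing the data. The number of arrays limits the precision.

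The receptors and lists were chosen with earlier results of these data known. The text names all 9 receptors, up to 6 called genes of each other list by smallest adjusted p, genes needed to say that a list holds no call, up to 3 genes nearest in pattern to each called receptor, and Hdac3; exceptions are marked. Lyz2, whose locus carries Cre, gave -0.02 for HDAC3 loss in vehicle (adjusted p = 0.997). Some listed genes are not reported here, and the list counts leave them out.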

Additional observations from a re-analysis of the deposited data

Results flagged for a closer look

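The IL-4 difference of Ccr3 had opposite signs in the genotypes, -0.41 in control cells and 0.13 in KO cells, and the difference between them was 0.54 on the log2 scale. It was marked because every control IL-4 array lay below the control vehicle mean and every KO IL-4 array above the KO vehicle mean. Its interaction had an unadjusted p of 0.00688 in limma, and the adjusted p over all genes was 0.999. The dimmer Ccr3 probe gave the same size, 0.54, with an unadjusted p of 0.0763. The sign in KO cells depended on the probe: it was -0.16 for the dimmer probe and -0.02 for the mean of both. No receptor in the control vehicle group, the only one with 4 arrays, had an array far enough from the rest to be marked, over 15 probes checked.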

How the results depend on the processing

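Of the single-receptor values under 26 alternatives, 825 kept their direction and side of the threshold, 36 lost a call and 13 gained one. Another 29, none called, changed sign, all of differences of 0.24 or less in size, most of them of Cxcr2 and Ccrl2. Ccr1, Ccr2 and Ccr3 stayed called for HDAC3 loss in vehicle in each alternative. For HDAC3 loss in vehicle (979 genes and 5 receptors called), the genes numbered 526 with median scaling, 1804 with array weights and 620 without the 2 arrays with the lowest share well above background, and the receptors 3 with median scaling and 3 with no filter on dim probes. Leaving out 1 array gave 451 to 1104 genes and 3 to 5 receptors. Under IL-4 (760 genes, 3 receptors) HDAC3 loss gave 424 genes with median scaling, 89 genes and 1 receptor with only the groups compared, 1403 with array weights and 484 without the 2 dim arrays, and 444 to 722 genes and 2 to 3 receptors leaving out 1 array. For IL-4 in control cells (1178 genes, 2 receptors), median scaling gave 706 genes and array weights 2643, with 4 receptors under array weights, under a trended and robust variance and with only probes well above background on all arrays; leaving out 1 array gave 756 to 1385 genes and 1 to 3 receptors. For IL-4 in KO cells (454 genes, 1 receptor), genes numbered 808 with normexp, 286 with median scaling, 115 with only the groups compared (0 receptors), 773 with trended variance and 266 without the 2 dim arrays, and 257 to 487 leaving out 1 array. The interaction (1 gene) gave 2 with quantile normalization, 2 with the authors' values, 2 with only probes well above background on all arrays, 8 with normexp, 10 with trended variance, 4 with array weights, and 1 to 4 leaving out 1 array. Counts moved by over 1.5 times without KO vehicle array 5 (460 genes for HDAC3 loss in vehicle and 301 for IL-4 in KO cells), 6 (451 and 300) or 7 (257 for IL-4 in KO cells), and without control IL-4 array 10 (463 for HDAC3 loss under IL-4) or 12 (444 there and 756 for IL-4 in control cells). The cause was not tested. The fit on only the groups compared was not run for the interaction, which uses all groups. Cxcr3 in KO vehicle cells was also not called with quantile normalization (adjusted p = 0.0507), median scaling (0.104), the authors' values (0.0516), no filter (0.0817), slide as a fixed block (0.121), only the groups compared (0.0851) or without the 2 dim arrays (0.146), and Ccrl2 not with median scaling (0.104) or no filter (0.0656). No paired analysis was possible because the groups share no replicate numbers; slide as a block, fixed or random, left the counts of receptors called at 4 or 5 for HDAC3 loss in vehicle and as before in the other comparisons. Signal over background limits Ccr7 and Cx3cr1.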
